A study of Mus musculus with 8 samples.

Results

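The PIWI proteins and the factors that make and load their small RNAs were described here as a set of 10 genes. These were taken out of 21950 genes counted in mouse germ cells made in culture and germ cells of the fetal ovary. They were chosen by name from the genes known to act in piRNA biogenesis, when earlier results of these data were already known. The set held the 3 PIWI genes of the mouse, *Piwil1*, *Piwil2* and *Piwil4*, and *Mov10l1*, *Pld6*, *Asz1*, *Gpat2*, *Mael*, *Fkbp6* and *Exd1*. The study asked how primordial germ cell-like cells (PGCLCs) differ in their transcriptome from primordial germ cells (PGCs), the embryonic founders of eggs and sperm. One group, d6PGCLCs, came from a single female line of induced pluripotent stem cells, BVSC-iPSC, which carries the reporters Blimp1-Venus and Stella-ECFP. According to the labels, these cells were sorted as positive for both reporters at day 8 of the culture, which is day 6 after PGCLC induction began. The other group, E12.5 PGCs, was sorted from female gonads of inbred C57BL/6J fetuses at embryonic day E12.5 as positive for the surface markers SSEA1 and integrin β3, with no reporter named in the labels. Each group had 4 pools from independent experiments, of 30000 to 340000 cells, and each pool gave 1 stranded poly(A) library. The paper cites earlier work that likened d6PGCLCs to migrating PGCs, an earlier stage than PGCs of the gonad. As all d6PGCLCs came from 1 line, the line, the strain, the culture, the gate and the developmental stage cannot be told apart as sources of a difference between the groups. In such bulk RNA, fewer cells that express a gene and less RNA per cell cannot be told apart either.

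piRNAs are small RNAs of animal germ lines that guide PIWI proteins to transcripts of transposable elements. Long single-stranded precursors are passed by the helicase MOV10L1 to the surface of mitochondria, where the nuclease PLD6 cuts them and the membrane proteins ASZ1 and GPAT2 help to assemble the machinery, and the resulting fragments are loaded into PIWI proteins, trimmed and methylated. In fetal testes PIWIL2 and PIWIL4 direct transposon silencing and DNA methylation, whereas mouse females that lack most of these proteins remain fertile, so that the genes are best known for the male germ line although fetal germ cells of both sexes transcribe several of them.

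Of the 10 genes, 9 were lower in d6PGCLCs than in E12.5 PGCs with a p of at most 0.05 after Benjamini-Hochberg adjustment (the quasi-likelihood test of edgeR), where 15.4% of all genes were lower (25.6% of the genes averaging at least 10 counts). With the further demand of a log2 fold change of at least 2 in size, 8 were called lower, against 3.37% of all genes (3.1% of those averaging at least 10 counts), and 0 were called higher (3.24% of all genes). *Pld6* was lower by less than that fold, and *Exd1* did not pass the test. For 9 of 10 genes, again with *Exd1* as the exception, every d6PGCLC library lay below every E12.5 PGC library, as for 14.8% of all genes (24.1% of those averaging at least 10 counts). The median log2 fold change of the 10 genes, d6PGCLC over E12.5 PGC, was -2.61, and that of all genes was 0.

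The libraries held 8054596 to 12024841 counted reads for d6PGCLCs and 7991437 to 11166023 for E12.5 PGCs. At these depths a count of 3 reads is 0.249 to 0.375 CPM, the unit of level used here, which scales counts to a common library total. This limits what can be said of the faintest genes, and it covers counting error only. Both groups carried germ cell markers, with summed levels over 10 genes of 3947 to 4553 CPM in the d6PGCLC pools and 4512 to 5046 CPM in E12.5 PGCs. *Dppa3*, *Prdm1*, *Prdm14*, *Tfap2c* and *Pou5f1* were higher in d6PGCLCs and *Dnd1*, *Dazl* and *Ddx4* were lower. Markers of other cell types were at low levels: 9 genes of gonadal somatic cells summed to 1.12 to 2.30 CPM in the d6PGCLC pools and 5.33 to 9.47 CPM in E12.5 PGCs (5 of 9 lower in d6PGCLCs), and 7 genes of embryoid body mesoderm and endoderm to 1.41 to 8.36 and 9.93 to 16.3 CPM (5 of 7 lower). The 6 endothelial genes summed to 26.0 to 48.6 and 18.7 to 34.3 CPM, with 2 of 6 higher in d6PGCLCs (*Cdh5* and *Cldn5*). Of a list of 6 genes of the male fetal germ line, which shares *Piwil4* and *Mael* with the set and *Tdrd1*, *Tdrd9* and *Dnmt3l* with the partners below, *Nanos2* had 0 counts in every library. The list summed to 5.81 to 18.0 CPM in the d6PGCLC pools and 93.4 to 168 CPM in E12.5 PGCs, with 4 of 6 lower and *Dnmt3l* higher in d6PGCLCs. The 4 lower genes of this list are themselves members or partners, so its sum repeats their difference. Whether cells of the types listed here were present, and their part in the differences below, was not tested.

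A pair of E12.5 PGC libraries stood apart. Replicate 4, labelled female, held 99 counts of Y-linked genes (8.94 CPM), where the other 7 libraries held 0, and replicate 2 had 1116 CPM of 10 genes known to respond to tissue dissociation, against 475 to 557 CPM in the other libraries of its group. That list also differed between the groups, at 406 to 492 CPM in d6PGCLCs, with 7 of its 10 genes lower there, among them *Hspa1a*, *Hspa1b* and *Jun*, and *Junb* higher, and its part in the results was not tested. Without both, 8 of the 10 genes were again called lower, with log2 fold changes of -2.27 for *Piwil2*, -3.03 for *Piwil4*, -2.78 for *Piwil1*, -2.51 for *Mov10l1*, -3.91 for *Asz1*, -2.66 for *Gpat2*, -4.02 for *Mael* and -3.16 for *Fkbp6*. In the same fit *Pld6* was at -1.22 and *Exd1* at -0.56, the latter again short of the threshold on the adjusted p.

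The sequences around the start sites, which the choice of the set did not use, showed no feature that ran through the whole set. RefSeq promoter sequences of GRCm38.p6, from 250 bases before to 50 bases after an annotated start, were at hand for 9 of the 10 genes, with 12 entries in all. The letters CACGTG, the E-box bound by MAX and its partners, read the same on both strands and were found in 6 of the 12 entries, which belong to 5 genes, *Fkbp6*, *Mael*, *Mov10l1*, *Piwil1* and *Pld6*. Counted per entry as well, 7.15% of 32851 promoters of that length held them, and 7.93% of 19954 promoters of genes in the count table. The entries are not independent, since both *Fkbp6* entries overlap and hold the same sites, while the other *Pld6* entry (chr11:59787173-59787472) holds none. *Asz1*, *Exd1*, *Gpat2* and *Piwil4* had no match. The letters GCGGGAA, a form of the E2F site, were searched on both strands and were in 0 of the 9 genes, against 4.60% of all promoters and 5.77% of those of counted genes. The windows held 0 to 32 CpG dinucleotides with a median of 19, where all promoters had a median of 7 and those of counted genes 12. A match is a description of the letters and no evidence of binding. Below, the minus-strand promoters of *Fkbp6* (chr5:135349995-135350294), *Pld6* (chr11:59787608-59787907) and *Mael* (chr1:166238695-166238994) are shown because they carry the E-box, in capitals, and that of *Asz1* (chr6:18109012-18109311) because this gene differed about as much as *Mael* and carries neither motif.
Fkbp6: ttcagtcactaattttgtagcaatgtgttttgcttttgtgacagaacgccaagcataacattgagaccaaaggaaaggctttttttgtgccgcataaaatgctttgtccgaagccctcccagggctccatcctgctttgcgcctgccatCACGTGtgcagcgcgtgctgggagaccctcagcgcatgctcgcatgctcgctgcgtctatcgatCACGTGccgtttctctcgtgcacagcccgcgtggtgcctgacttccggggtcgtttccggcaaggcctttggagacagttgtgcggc
Pld6: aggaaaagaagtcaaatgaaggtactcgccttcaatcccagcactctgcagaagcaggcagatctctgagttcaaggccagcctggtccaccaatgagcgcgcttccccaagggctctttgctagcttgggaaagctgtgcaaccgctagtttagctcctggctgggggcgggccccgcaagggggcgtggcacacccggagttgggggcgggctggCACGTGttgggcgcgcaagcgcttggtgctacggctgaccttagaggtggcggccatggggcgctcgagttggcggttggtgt
Mael: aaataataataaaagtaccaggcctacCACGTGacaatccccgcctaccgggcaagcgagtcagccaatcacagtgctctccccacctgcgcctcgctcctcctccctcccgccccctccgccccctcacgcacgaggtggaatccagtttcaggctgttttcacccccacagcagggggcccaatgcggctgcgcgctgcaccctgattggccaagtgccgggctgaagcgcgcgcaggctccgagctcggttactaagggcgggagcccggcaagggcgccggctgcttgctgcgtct
Asz1: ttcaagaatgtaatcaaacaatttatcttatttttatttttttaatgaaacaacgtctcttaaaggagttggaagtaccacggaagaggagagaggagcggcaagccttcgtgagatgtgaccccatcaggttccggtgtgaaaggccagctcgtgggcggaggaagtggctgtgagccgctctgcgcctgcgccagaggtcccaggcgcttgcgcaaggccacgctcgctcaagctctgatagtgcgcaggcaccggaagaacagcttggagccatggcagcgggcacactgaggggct
In the entries shown, the first base of the E-box lies 101 and 37 bases before the annotated start in *Fkbp6*, 33 in *Pld6* and 223 in *Mael*. In *Mov10l1* it lies 246 bases before the start, and in *Piwil1* 179 and 154 bases before it. From the start of the other *Fkbp6* entry, the same sites lie 232 and 168 bases before it. Which start the counted isoform uses is not known.

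Among the PIWI genes, which encode the proteins that hold the piRNA, *Piwil2* (Entrez 57746, chr14:70372477-70436898) was the abundant one in both groups. Its levels in d6PGCLC replicates 1 to 4 were 113.3, 90.9, 55.8 and 64.2 CPM, and in E12.5 PGC replicates 1 to 4 they were 388.5, 304.9, 390.2 and 374.1 CPM. The groups were far apart, with E12.5 PGC replicate 2 the lowest of its group and d6PGCLC replicates 1 and 2 the highest of theirs. *Piwil2* thus stood at 81.1 ± 26.2 CPM in the d6PGCLC pools and 364 ± 40.4 CPM in E12.5 PGCs (mean ± SD, n = 4 libraries each, as for all such values here), which is -2.17 ± 0.15 as log2 fold change with its standard error (adjusted p = 6.025e-10, edgeR quasi-likelihood). The d6PGCLC mean was therefore not near 0, and the E12.5 PGC mean was 4.49 times as high.

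*Piwil4* (Entrez 330890, chr9:14701776-14740672), whose protein acts in the nucleus of fetal male germ cells, was counted 5, 5, 0 and 1 times in the d6PGCLC libraries and 22, 20, 25 and 22 times in the E12.5 PGC libraries. That gave 0.317 ± 0.305 and 2.29 ± 0.334 CPM, without overlap of the groups. On the log2 scale the difference was -2.89 with a standard error of 0.60 (adjusted p = 0.0001727), with a 95% interval of -4.14 to -1.64. Its exons overlap an antisense gene, Gm10706, over 137 bp, and whether the counting used strand is not stated, so that these few reads cannot be assigned with certainty.

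*Piwil1* (Entrez 57749, chr5:128736071-128755474), the PIWI gene of meiotic and later male germ cells, was as faint. It had 4, 3, 3 and 1 counts in the d6PGCLC libraries and 13, 12, 27 and 20 in the E12.5 PGC libraries, or 0.297 ± 0.162 and 1.79 ± 0.515 CPM. The groups did not overlap, but all d6PGCLC values lay close to the level of 3 counts. On the log2 scale the difference was -2.58 with a standard error of 0.53 (adjusted p = 0.0001692), and its 95% interval ran from -3.68 to -1.48.

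**Figure D1:**
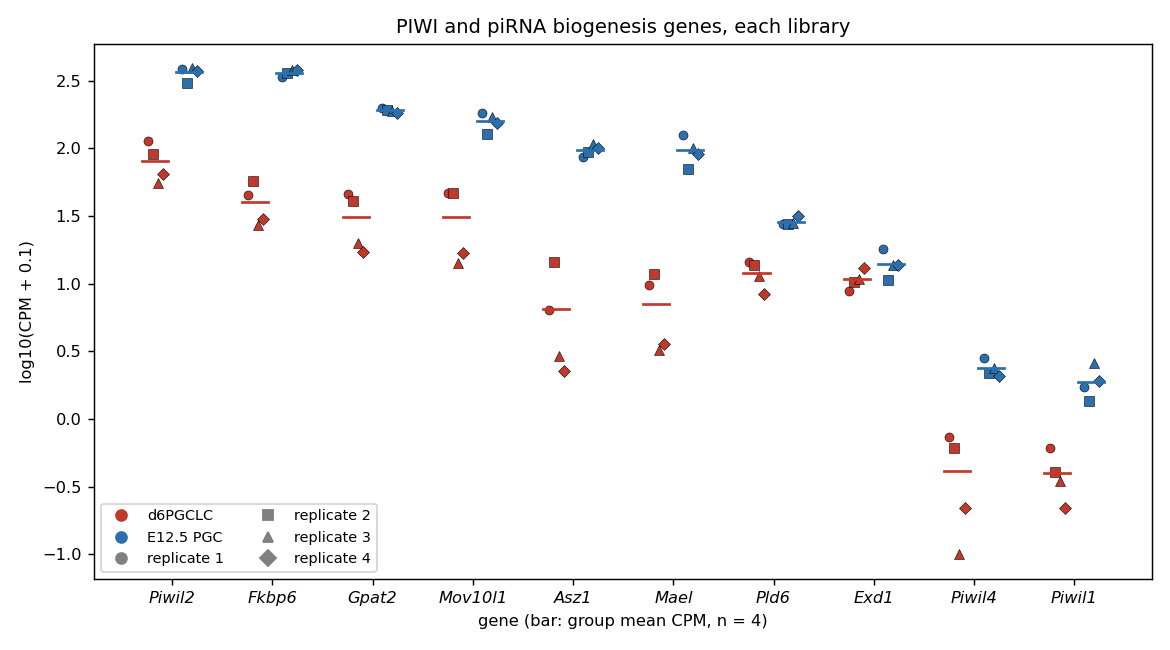
Level of each of the 10 genes in each of the 8 libraries, as log10(CPM + 0.1), with symbols for the replicate number and bars for the group mean CPM (n = 4). The red d6PGCLC symbols lie below the blue E12.5 PGC symbols for 9 genes, with *Exd1* as the exception, and *Piwil1* and *Piwil4* are the faintest genes in both groups.

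The factors that act on precursors and at mitochondria showed the same direction with different sizes. *Mov10l1* (Entrez 83456, chr15:88982891-89055152), which encodes the helicase that binds piRNA precursors, was at 46.8, 46.8, 14.1 and 16.9 CPM in the d6PGCLC libraries and at 182.9, 127.4, 170.8 and 152.8 CPM in the E12.5 PGC libraries. The d6PGCLC values fell into a higher and a lower pair, both below the E12.5 PGC values. Expressed as log2, the difference was -2.36 with a standard error of 0.26 (adjusted p = 3.323e-07).

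*Pld6* (Entrez 194908, chr11:59783893-59787657), the gene of the nuclease that cuts the precursors, changed less. It was at 14.4, 13.6, 11.4 and 8.36 CPM in the d6PGCLC pools and at 27.6, 27.4, 28.2 and 31.6 CPM in E12.5 PGCs, again without overlap. The log2 difference of -1.26 with its standard error of 0.16 (adjusted p = 2.548e-06) had a 95% interval of -1.60 to -0.92, which lies short of a log2 fold change of -2.

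*Asz1* (Entrez 74068, chr6:18050964-18109061), which encodes an ankyrin-repeat protein of the outer mitochondrial membrane, differed from the E12.5 PGC level by about as much as *Mael*, and these had the largest fold changes of the set. Its levels were 6.25, 14.5, 2.82 and 2.18 CPM in the d6PGCLC libraries, and 86.2, 94.0, 108.1 and 100.0 CPM in the E12.5 PGC libraries. The d6PGCLC libraries varied 6.63-fold from lowest to highest, with replicate 2 the highest, whereas the E12.5 PGC libraries varied 1.25-fold. The log2 difference was -3.91 with a standard error of 0.31 (adjusted p = 3.091e-09), and it was -4.74 without d6PGCLC replicate 2. *Mael* differed more than *Asz1* without d6PGCLC replicate 1 (-3.98 against -3.90) and without E12.5 PGC replicates 2 and 4 (-4.02 against -3.91).

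*Gpat2* (Entrez 215456, chr2:127425154-127436093), which encodes a mitochondrial protein needed for the primary processing of piRNAs, was at 45.9, 40.9, 19.7 and 17.1 CPM in d6PGCLCs. In E12.5 PGCs it was at 200.1, 193.4, 190.1 and 182.1 CPM, the narrowest spread of the 10 genes in that group, with a coefficient of variation of 3.92%. The groups were clearly separated, by -2.64 on the log2 scale with a standard error of 0.20 (adjusted p = 2.236e-09).

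The remaining genes act in the cytoplasm, where piRNAs are amplified and loaded, partly in germ granules. *Mael* (Entrez 98558, chr1:166201385-166238744), the gene of a granule protein required for transposon silencing, was at 9.70, 11.7, 3.15 and 3.52 CPM in the d6PGCLC pools and at 125.9, 70.1, 99.9 and 90.1 CPM in E12.5 PGCs. Replicate 2 was the lowest of the E12.5 PGC libraries and still far above every d6PGCLC library. The log2 difference was -3.80 with a standard error of 0.27 (adjusted p = 6.947e-10).

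*Fkbp6* (Entrez 94244, chr5:135291704-135351809), a co-chaperone of HSP90 in the loading of PIWI proteins, was at 44.9, 57.6, 26.9 and 30.1 CPM in d6PGCLCs. The E12.5 PGC libraries were closely grouped far above this, at 334.9, 362.4, 377.7 and 376.0 CPM. The log2 difference of -3.19 with its standard error of 0.16 (adjusted p = 4.272e-12) had the lowest adjusted p of the set.

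*Exd1* (Entrez 241624, chr2:119516505-119547627), whose protein works with TDRD12 in the making of PIWIL4-bound piRNAs, was the gene whose groups overlapped. It was at 8.68, 10.3, 10.7 and 12.97 CPM in the d6PGCLC pools and at 17.8, 10.5, 13.6 and 13.6 CPM in E12.5 PGCs. Replicate 2 of the E12.5 PGCs lay among the d6PGCLC libraries. On the log2 scale the difference was -0.38 with a standard error of 0.19 (adjusted p = 0.1433), with a 95% interval of -0.77 to 0.01, so that a decrease by more than 0.77 on the log2 scale lies outside this interval.

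Compared per kb of the exonic length given with the counts, which puts genes on 1 scale of level, *Fkbp6* was the most abundant gene of the set in both groups. In E12.5 PGCs the medians fell from *Fkbp6* at 229.5 CPM per kb to *Piwil2* at 65.4, *Gpat2* at 54.7, *Mael* at 46.9, *Asz1* at 42.9, *Mov10l1* at 31.5, *Pld6* at 17.4, *Exd1* at 3.86, *Piwil4* at 1.12 and *Piwil1* at 0.355. Neighbours whose libraries overlapped in this order were *Piwil2* and *Gpat2*, *Gpat2* and *Mael*, and *Mael* and *Asz1*. In d6PGCLCs the order of medians was *Fkbp6* at 23.3 CPM per kb, *Piwil2* at 13.3, *Gpat2* at 8.65, *Pld6* at 7.80, *Mov10l1* at 6.20, *Mael* at 3.26, *Exd1* at 2.97, *Asz1* at 2.01, *Piwil4* at 0.160 and *Piwil1* at 0.0575. There only *Asz1* and *Piwil4* were neighbours without overlap. *Pld6*, *Exd1* and *Mov10l1* stood higher in the d6PGCLC order than in the E12.5 PGC order, and *Mael* and *Asz1* stood lower. The counted lengths matched the length of no annotated GENCODE M21 transcript for any of the 10 genes, and were longer than the longest such transcript for 6, so that levels between genes are approximate.

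The PIWI genes can be set beside the Argonaute genes *Ago1* to *Ago4*, the other branch of the same protein family, which binds microRNAs in most cells. *Piwil2* made up 97.8 to 99.5% of the summed PIWI level per kb in d6PGCLCs and 97.5 to 97.9% in E12.5 PGCs. The summed Argonaute level was 45.2 to 68.6 CPM per kb in d6PGCLCs and 49.1 to 60.3 in E12.5 PGCs, so that these ranges overlapped. The ratio of PIWI to Argonaute level per kb was 0.182 to 0.352 in the d6PGCLC libraries and 1.09 to 1.25 in the E12.5 PGC libraries.

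The Argonaute genes that passed the test were *Ago3* and *Ago4*. *Ago1* had a log2 fold change of -0.08 (95% interval -0.27 to 0.11) and *Ago2*, the slicing Argonaute, of 0.15 (-0.14 to 0.45), and neither passed the test. *Ago3* was lower at 15.1 ± 3.76 against 27.8 ± 2.69 CPM (log2 fold change -0.89, adjusted p = 0.0001773), and the faint *Ago4* was lower at 1.39 ± 0.371 against 4.87 ± 2.25 CPM (-1.78, adjusted p = 0.0003428, -2.01 without E12.5 PGC replicate 4). With the microRNA factors *Drosha*, *Dgcr8*, *Dicer1* and *Tarbp2* the list had 8 measured genes, of which 5 passed the adjusted p as lower, against 15.4% of all genes and 25.6% of those averaging at least 10 counts, and 3 (*Ago1*, *Ago2* and *Dicer1*) did not pass. Of the 8, 0 were called with the threshold on the fold, and their median log2 fold change was -0.38. *Drosha* (-0.51, adjusted p = 0.0324) lost the threshold in 6 of the 8 fits that leave out 1 library, with an adjusted p of up to 0.102.

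**Figure D2:**
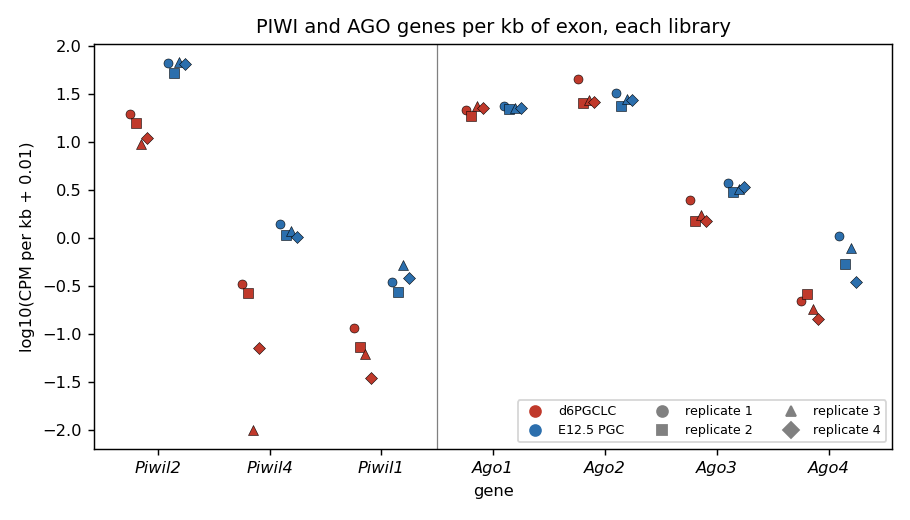
Level per kb of exon of the 3 PIWI and the 4 Argonaute genes in each library, as log10(CPM per kb + 0.01), with symbols for the replicate number. *Piwil2* is separated between the groups, while *Ago1* and *Ago2* overlap between them.

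Several members have relatives that work outside the germ line, which gives a comparison within each protein family. *Mov10*, the widely expressed relative of *Mov10l1*, was higher in d6PGCLCs at 724 ± 108 against 529 ± 17.5 CPM (log2 fold change 0.45, adjusted p = 0.0007108). The ratio of *Mov10l1* to *Mov10* per kb was 0.0181 to 0.0620 in d6PGCLCs and 0.215 to 0.292 in E12.5 PGCs. *Pld3*, a lysosomal relative of *Pld6*, was higher in d6PGCLCs at 126 ± 21.0 against 57.4 ± 0.745 CPM (1.14, adjusted p = 5.35e-08), and the ratio of *Pld6* to *Pld3* per kb was 0.136 to 0.174 against 0.797 to 0.944. The ratio of *Pld6* to the fainter *Pld1*, which was lower in d6PGCLCs, went the other way, at 13.8 to 30.2 against 11.5 to 13.4. *Fkbp4*, a widely expressed HSP90 co-chaperone, had 991 ± 146 and 979 ± 41.1 CPM (0.02, 95% interval -0.18 to 0.22), and the ratio of *Fkbp6* to it per kb was 0.0476 to 0.0813 against 0.565 to 0.610. In the same way, per kb, the ratio of *Gpat2* to *Gpam*, a glycerol phosphate acyltransferase of lipid synthesis, was 2.17 to 4.58 against 16.8 to 20.6. The ratio of *Exd1* to *Exd2* per kb overlapped between the groups, at 0.327 to 0.452 and 0.325 to 0.456.

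Of the 11 relatives, 3 passed the adjusted p as higher in d6PGCLCs (*Mov10*, *Pld3* and the faint *Pld2*, against 16.1% of all genes), 2 as lower (*Pld1* and *Gpat4*, against 15.4%), and 6 did not pass (*Gpam*, *Gpat3*, *Pld4*, *Exd2*, *Fkbp4* and *Fkbp5*). *Pld4* averaged 0.38 counts, too few to show a difference. None of the 11 relatives was called with the threshold on the fold in the fit to all 8 libraries, and their median log2 fold change was 0.02. *Pld1* was at -1.92 (adjusted p = 1.215e-06, and -2.001 without d6PGCLC replicate 2) and *Pld2* at 1.75 (adjusted p = 0.007425, and 2.15 without E12.5 PGC replicate 2). *Gpat4* was at -0.29 (adjusted p = 0.02969), and it lost the threshold in 6 of the 8 fits that leave out 1 library, with an adjusted p of up to 0.0869. *Fkbp5* passed it without d6PGCLC replicate 4 (adjusted p = 0.0377).

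Of a list of 30 genes that act with the PIWI genes or regulate them, 27 were in the count table. Among the 27, 14 were lower in d6PGCLCs (15.4% of all genes), 4 were higher (16.1% of all genes) and 9 did not pass the adjusted p. The median log2 fold change was -1.06. Those that did not pass include *Nanos2*, with 0 counts in every library, and *Tdrd6* and *Gtsf2*, which averaged 0.38 counts each. Such counts are too few to show a difference. With the threshold on the fold, 7 were called lower (3.37% of all genes) and 1 higher (3.24%). *Ddx4*, the RNA helicase of the germ granule, differed most, with 38.2, 42.8, 27.2 and 33.9 CPM in the d6PGCLC pools and 797.7, 626.2, 835.6 and 782.0 CPM in E12.5 PGCs. This log2 difference was -4.42 with a standard error of 0.12 (adjusted p = 1.287e-15).

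The Tudor proteins bind PIWI proteins through methylated arginines, and their genes differed from each other. *Tdrd9* was at 0.982 ± 0.277 CPM in the d6PGCLC pools and 9.90 ± 2.24 CPM in E12.5 PGCs (log2 fold change -3.32, adjusted p = 5.41e-09), and *Tdrd1* at 3.34 ± 1.98 and 21.7 ± 6.72 CPM (-2.74, adjusted p = 3.475e-07). *Tdrkh*, which recruits the trimming enzyme at mitochondria, was at 41.6 ± 5.10 and 94.5 ± 7.55 CPM (-1.19, adjusted p = 3.253e-08). *Tdrd5* (-0.19, 95% interval -0.42 to 0.03) and *Tdrd12*, the partner of *Exd1* (0.05, interval -0.29 to 0.38), did not pass the test. These last genes were named after their values had been seen, and the same holds for *Tex15*, *Tdrd7*, *Tex19.1*, *Gtsf1l*, *Morc1*, *Dnmt3a*, *Dnmt3b*, *Prmt5*, *Wdr77*, *Drosha*, *Dgcr8*, *Dicer1* and *Tarbp2*.

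Of the enzymes that finish the end of the piRNA, the trimmer gene *Pnldc1* was lower at 29.6 ± 1.96 against 58.3 ± 5.01 CPM (-0.98, adjusted p = 6.782e-07). The methyltransferase gene *Henmt1* was faint in both groups at 0.317 ± 0.219 and 0.929 ± 0.340 CPM, and did not pass with all libraries (-1.46, adjusted p = 0.0584). Without E12.5 PGC replicate 1 it passed (adjusted p = 0.0407). *Gtsf1*, which helps PIWI proteins to cleave their targets, was lower at 0.684 ± 0.411 against 3.43 ± 0.592 CPM (-2.38, adjusted p = 6.404e-05), and it fell short of the fold threshold at -1.99 without d6PGCLC replicate 3.

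The other partners called lower were *Tex15* (-2.30) and *Tex19.2* (-2.40), both linked to transposon silencing, and *Tdrd7* (-2.22), a granule protein. *Tex19.1* was at -1.74 and crossed the fold threshold at -2.08 without d6PGCLC replicate 2. *Dnmt3a*, a de novo DNA methyltransferase gene, was lower at 65.9 ± 16.3 against 137 ± 9.39 CPM (-1.06, adjusted p = 1.668e-06). Higher in d6PGCLCs were *Gtsf1l* (1.74), the silencing factor *Morc1* (0.90), the DNA methyltransferase *Dnmt3b* (0.94) and *Dnmt3l* (2.44, adjusted p = 0.0231). *Dnmt3l*, the cofactor of DNA methylation in germ cells, rested on 0.624 ± 0.274 and 0.110 ± 0.149 CPM and lost its call without d6PGCLC replicate 1, E12.5 PGC replicate 3 or E12.5 PGC replicate 4, and stood at 3.75 without E12.5 PGC replicate 2. The arginine methyltransferase *Prmt5* (-0.16, 95% interval -0.34 to 0.01) and its partner *Wdr77* (-0.04, interval -0.22 to 0.14), which modify PIWI proteins and are widely expressed, did not pass.

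**Figure D3:**
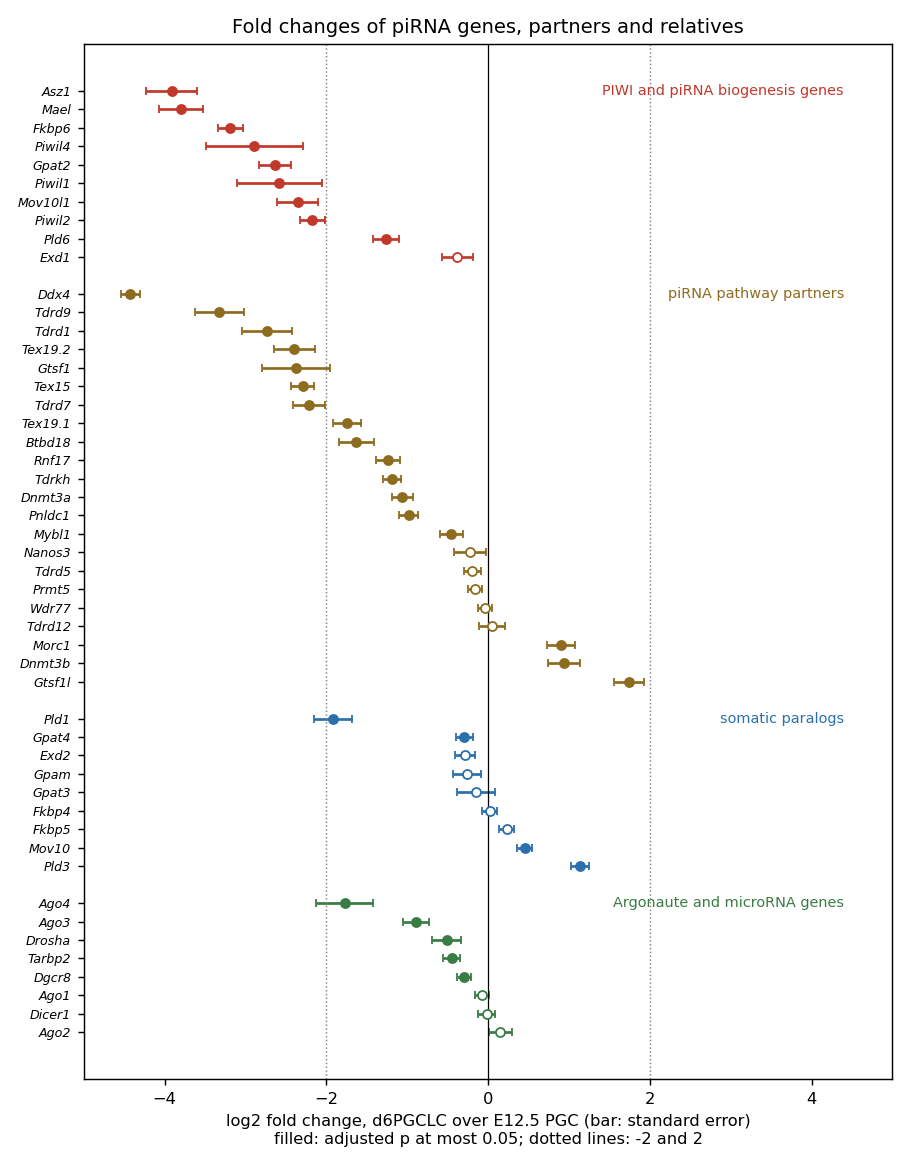
Log2 fold changes (d6PGCLC over E12.5 PGC) with standard errors for the 10 genes and for those partners, relatives and Argonaute or microRNA genes averaging at least 10 counts. Filled symbols had an adjusted p of at most 0.05, and 8 of the 10 genes lie left of the dotted line at -2, while *Pld6* lies right of it and *Exd1* is open.

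Within the d6PGCLC group the genes varied together. Replicates 1 and 2 were both above replicates 3 and 4 for 9 of the 10 genes. This split was not planned, and it was counted on the same values that show it, so its counts are no test. Of the 9 genes, *Piwil1* and *Piwil4* rest on 11 counts each over the d6PGCLC libraries. *Piwil1* had 3 counts in both replicate 2 and replicate 3. Among the 6 members that averaged at least 100 counts in the d6PGCLC libraries themselves the split held for 5, or 83.3%. It held for 1872 of 8093 genes of that depth, or 23.1%, and for 7 of 17 partners. In E12.5 PGCs it held for 1 of 10, which is near the share of all genes there. Among genes averaging at least 100 counts in those libraries, it held for 1 of 8 members and for 724 of 7961 genes, or 9.09%. The exception in d6PGCLCs was *Exd1*, which was lowest in replicate 1 and highest in replicate 4.

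The spread was wider in d6PGCLCs for every member except *Exd1*. For those 6 genes the median coefficient of variation was 34.0% in d6PGCLCs, where all 8093 genes had 11.9%. In E12.5 PGCs 8 members averaged at least 100 counts, with a median of 10.3% against 8.72% for all genes of that depth. Of these 8, *Mael* at 24.0% and *Exd1* at 21.6% lay above 20.7%, the 95th percentile of all genes in that group. In d6PGCLCs 4 of the 6 lay above 30%, the 95th percentile of all genes, at 32.3% for *Piwil2*, 35.6% for *Fkbp6*, 47.3% for *Gpat2* and 58.2% for *Mov10l1*. *Pld6* at 22.8% and *Exd1* at 16.6% lay below it. Among 17 partners of that depth 4 lay above it, and the median of the 17 was 21.1%. *Mael* at 61.8% and *Asz1* at 87.8% rest on 258 and 243 counts summed over the d6PGCLC libraries, fewer than that depth. These are descriptions of 4 pools, with no test. The depths of d6PGCLC replicates 1 to 4 were 8054596, 10024993, 12024841 and 8275874 counts, and their germ cell marker sums were 3947, 4505, 4418 and 4553 CPM, neither of which split the libraries in that way. Within that marker list, however, most genes did, in both directions. *Dazl*, an RNA-binding protein gene that turns on as PGCs reach the gonad, had 50.5, 63.9, 17.8 and 18.5 CPM, and *Ddx4* and *Dnd1* were also higher in replicates 1 and 2. *Prdm1* (415, 407, 452 and 502 CPM), *Prdm14*, *Tfap2c*, *Kit* and *Nanos3* were lower in those replicates, and *Dppa3* and *Pou5f1* did not split. The sums of the dissociation list, at 492, 455, 406 and 408 CPM, split as *Dazl* did. Those of the endothelial list, at 26.0, 35.3, 40.0 and 48.6 CPM, split with replicates 1 and 2 below. The part of these in the pattern was not tested.

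**Figure D4:**
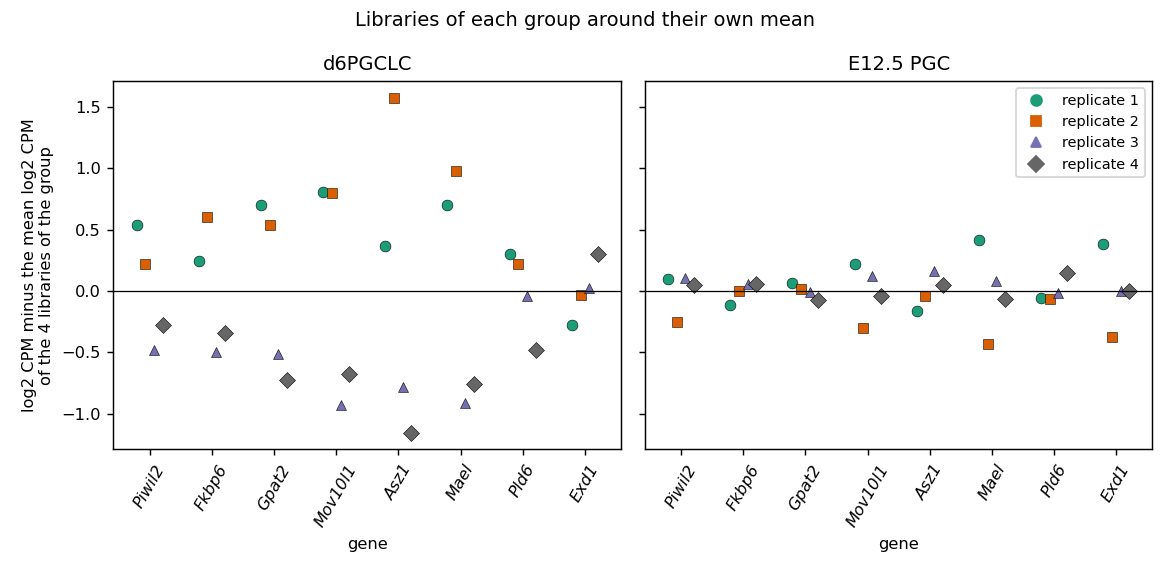
Deviation of each library from the mean log2 CPM of its group, for the 8 genes averaging at least 100 counts over all 8 libraries, with 1 colour and symbol per replicate number. In d6PGCLCs replicates 1 and 2 lie above replicates 3 and 4 for 7 of the 8 genes, with *Exd1* as the exception. The E12.5 PGC libraries spread less around 0 for the same 7 genes, and more for *Exd1*.

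The genes outside the set and the partners whose pattern over the 8 libraries was most like the median profile of the 8 members averaging at least 100 counts over all libraries were found by the root mean square difference of log2(CPM + 0.5), centred per gene, among 8100 genes of that depth. The closest was *Rbm44* with a difference of 0.0928, at 26.9 CPM in the d6PGCLC pools and 155 CPM in E12.5 PGCs. *Sohlh2* (0.201), a transcription factor gene of germ cells, *Dusp9* (0.225), *Tuba3a* (0.250) and *Stk31* (0.266) followed. Of the members themselves *Gpat2* lay closest to the shared profile at 0.109 and *Mov10l1* next at 0.145, while *Exd1* lay farthest at 1.28.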

How the data were processed

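The authors used STAR to align the reads to GRCm38 (mm10) plus ERCC spike-in sequences, chose 1 transcript isoform at random for each gene, and counted uniquely mapped reads on its exons with QuasR. The deposited table holds these raw counts, without normalization, for 21950 genes and 8 libraries, with the exonic length of each gene. Strand use in counting is not given in the sources used here. Symbols and coordinates came from RefSeq for 21907 genes.

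Counts were fitted in R 4.3.3 with edgeR 4.0.16 (TMM, glmQLFit and glmQLFTest, prior count 0.125, cell type as the only term, no filter), and p-values were Benjamini-Hochberg adjusted over all genes. CPM used TMM-scaled library sizes. Standard errors and 95% intervals came from the quasi-likelihood fit. All pairs of replicates differed by more than sampling noise (chi-square over its degrees of freedom, 3.35 to 22.1). On counts simulated for this comparison over 21950 genes, 98 of 100 genes changed by 2.5 on the log2 scale and 100 of 100 changed by 3 were recovered. The changed genes averaged at least 10 counts, and the simulated spread followed the trend over all genes. Smaller folds, such as that of *Piwil2*, and the wider spread of several members in d6PGCLCs were not simulated.

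The members, the lists and the rule for named genes were chosen with earlier results of these data known. All members, relatives and Argonaute genes were named. Of the partners, the rule named the 6 with the largest change among those called, and 7 that act with the members. Alternatives comprised edgeR's likelihood ratio test (the study's test), DESeq2 1.42.0, other normalizations, filters, a prior count of 2, stricter thresholds, a replicate block and leaving out libraries. The result for 1 marker list is not reported here.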

Additional observations from a re-analysis of the deposited data

How the results depend on the processing

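The count of 8 members called lower was 8 under each of the 20 alternatives run, and the log2 fold change of each of the 10 members kept its direction and its side of the threshold under each of 18. The 20 mean levels moved by less than 1 SD with unscaled library sizes. *Exd1* passed in 0 of 18, with an adjusted p of up to 0.450. With each replicate left out in turn, members called lower numbered 8 to 8, partners called lower 6 to 8, relatives past the adjusted p 4 to 5, and Argonaute and microRNA genes past it 4 to 5. Tested with edgeR's glmTreat against a log2 change of 1 in size, 1 relative and 0 Argonaute or microRNA genes passed, which follows from the stricter null hypothesis. At an unadjusted glmTreat p under 0.05 there were 3 relatives and 1 Argonaute or microRNA gene. With the quasi-likelihood test 5 relatives and 5 Argonaute or microRNA genes passed, and with DESeq2 6 and 5. Over all genes, a prior count of 2 left 382 genes called lower and 450 higher, against 740 and 712.

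Whether replicate numbers pair the libraries was not settled. The correlations of same-numbered deviations over 8128 genes were 0.441, 0.217, -0.106 and 0.1. The value of 0.441, for replicate 1 of both groups, was the highest of all pairs, but not every library correlated best with its own number. With a replicate block 7270 genes passed the adjusted p, against 6919 without it. With a replicate block 8 members and 7 partners were called lower, 6 relatives and 5 Argonaute and microRNA genes passed, and 638 genes over all were called lower and 642 higher. Depth limits *Piwil1* and *Piwil4*, which rest on 11 counts each over the 4 d6PGCLC libraries.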
